A study of Pimephales promelas with 80 samples.

Results

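Of the 26150 genes counted in whole fathead minnow larvae, 77 were higher at the highest dose of 6PPD-quinone and lower at the highest dose of its parent, 6PPD, each against the same unexposed controls. The 77 genes were chosen by measured levels. On the scale log2(CPM + 1), where CPM is a gene's counts divided by the library's counts in genes, in M, and M stands for 10 to the power of 6, a gene needed a mean at least 0.4 above the control mean at 8.78 mg/L of 6PPD-quinone (6PPD-Q), a mean at least 0.4 below it at 2.68 mg/L of 6PPD, and 10 counts or more in every control. A level on this scale understates the change of low genes. Of all genes, 18486 had the counts in controls, and these are called measured genes below.

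The series asked whether either chemical alters the larval transcriptome of the fathead minnow (Pimephales promelas), a fish used in toxicity testing, and whether that tells how 6PPD-Q acts or why fish species differ in sensitivity. Single whole larvae, unfed, spent 24 hours in wells with a little of the solvent DMSO, which the labels give for every well. There were 5 fish at each of 8 doses of 6PPD-Q (0.00277, 0.00878, 0.0277, 0.0878, 0.277, 0.878, 2.77 and 8.78 mg/L), 5 fish at each of 6 doses of 6PPD (0.00848, 0.0268, 0.0848, 0.268, 0.848 and 2.68 mg/L) and 10 unexposed controls, 80 fish in all. Larvae of several crosses had been mixed and then sorted at random to wells. The labels give their age as 5 days but disagree on whether it counts from hatching or from fertilization. The counts in genes came to between 16.2 and 36.6 M a library, with a median of 20.3 M. By a letter in the library names, read here as a plate, all but 3 libraries came from plate C. The 3 of plate A are control replicates 1 and 2 and replicate 1 at 2.68 mg/L of 6PPD. The names do not say what the letter stands for.

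6PPD is added to tire rubber, where it reacts with ozone before the rubber does, and 6PPD-Q is an oxidized product of that reaction that washes off roads. The quinone is known for its acute toxicity to coho salmon, while several other fishes tolerate it. Fish larvae commonly answer foreign chemicals with genes for detoxifying enzymes, for transporters and for protection against oxidants. The files give the genes by identifiers that begin with FMg and pair none with a name, and 0 of the 26150 matched the RefSeq gene table, so no member is given a role here, and markers of tissues or cell types could not be read. In whole larvae, fewer cells of a type and less RNA per cell cannot be told apart.

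The values that chose the genes were modest for most of them. At 8.78 mg/L of 6PPD-Q the median member was 0.55 above controls (range 0.40 to 4.17), and at 2.68 mg/L of 6PPD it was 0.71 below them (a difference of -0.71, range -3.15 to -0.40). The fall with 6PPD was the larger change in 46 members and the rise with 6PPD-Q in 31. A difference of at least 1 was reached by 4 members with 6PPD-Q, by 21 with 6PPD, and by 1 member, FMg025031, with both. Many lay near the thresholds, with 33 members under 0.5 for 6PPD-Q and 19 above -0.5 for 6PPD. Just inside the threshold for 6PPD-Q a member had 0.403, and just outside it a gene had 0.396. For 6PPD these values were -0.401 and -0.398. By these thresholds the members make up 12.5% of the 616 genes up with 6PPD-Q, and 11.7% of all measured genes were down with 6PPD. They make up 3.56% of the 2161 genes down with 6PPD, and 3.33% of all measured genes were up with 6PPD-Q. More genes moved the same way with both chemicals. Of the 616, 206 (33.4%) were up with 6PPD, and of the 2161, 431 (19.9%) were down with 6PPD-Q. The contrasts share their controls, so nothing is read from these shares.

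Single fish spread widely around those means. All 5 fish at 8.78 mg/L of 6PPD-Q were above the control mean in 40 members, all 5 fish at 2.68 mg/L of 6PPD were below it in 53, and both held in 32. The 5 fish with 6PPD-Q lay above the highest of the 10 controls in 2 members, FMg025031 and the member ranked 7 by its rise. The 5 fish with 6PPD lay below the lowest control in 10 members, and no member did both. In 45 members every fish at 8.78 mg/L of 6PPD-Q was above every fish at 2.68 mg/L of 6PPD. These counts of fish come from the fish that chose the members and were not made over all measured genes, so nothing is read from them. The edgeR quasi-likelihood test, in a fit of all 80 fish with Benjamini-Hochberg adjustment over 21599 genes, called 3 members higher at 8.78 mg/L of 6PPD-Q than in controls, and the background of genes called higher was 0.259% (lower: 0.0417%, with 0 members). At 2.68 mg/L of 6PPD it called 38 members lower than controls, against a background of 9.72% (higher: 12.4%, with 0 members). The rule used these same fish, so nothing is read from these counts.

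Members were less abundant and more variable than measured genes as a whole, by the medians below. In controls the median member had 7.42 CPM (range 1.31 to 954), against 15.6 CPM for all measured genes, and 37.7% of members were under 5 CPM, against 20.7% of measured genes. The SD of log2(CPM + 1) over the 10 controls had a median of 0.399 in members and 0.217 in measured genes. Within the 12 groups of fish that had no part in choosing the members, the median SD was 0.477 in members and 0.269 in measured genes. What part this spread has in the values that chose the members was not tested.

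Taken by fish, the members' levels separated the top doses and were mixed below them. The median over the 77 members of a fish's difference from the control mean was 0.785, 0.313, 0.793, 0.385 and 0.736 in the 5 fish at 8.78 mg/L of 6PPD-Q. The 5 fish at 2.68 mg/L of 6PPD had -1.07, -0.63, -0.80, -0.51 and -0.59. The 10 controls ranged from -0.18 to 0.155 with a median of 0.0666. The choice of members, made on the means of these groups, favours their separation, so nothing is read from it. In the other 60 fish the value lay between -0.48 and 0.590, and the fish of every dose overlapped the controls. Group means over the 6PPD-Q doses, from low to high, were 0.07, -0.03, 0.09, 0.27, 0.13, -0.04, 0.12 and 0.60, and those over the 6PPD doses were 0.12, 0.02, -0.06, 0.06, -0.04 and -0.72.

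**Figure D1:**
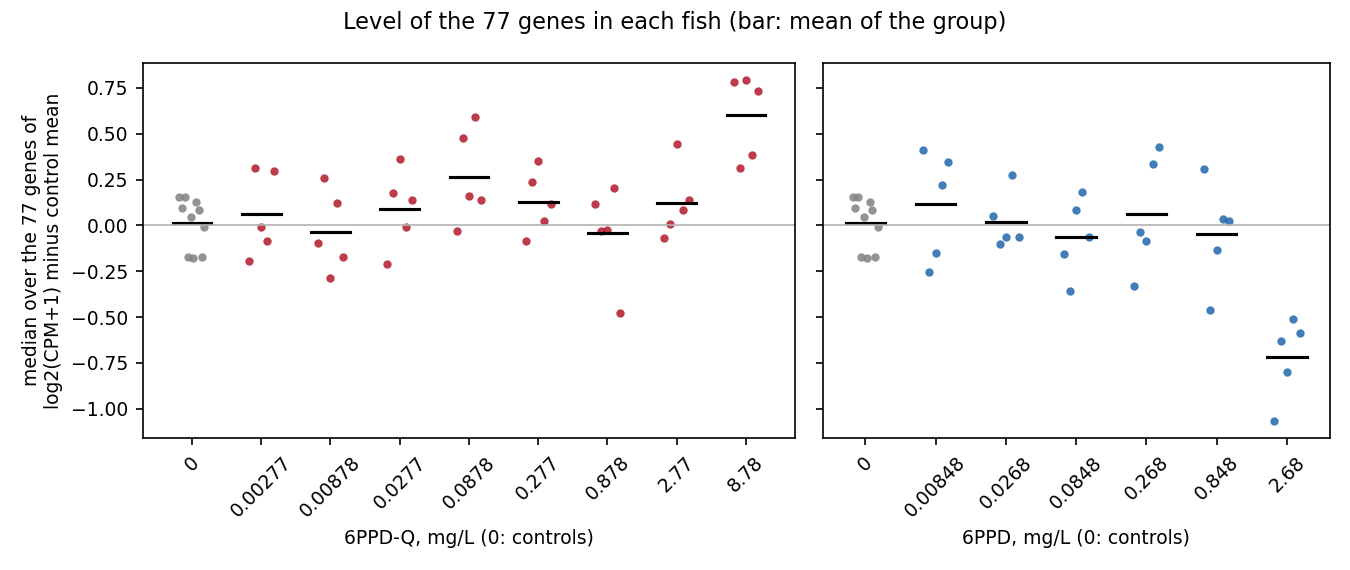
Median over the 77 genes of each fish's log2(CPM + 1) minus the control mean (vertical axis), by nominal dose in mg/L, for 6PPD-Q (left, red) and 6PPD (right, blue), with the 10 controls in grey at 0 in both panels and a bar at each group mean. The means of 0.60 at 8.78 mg/L of 6PPD-Q and -0.72 at 2.68 mg/L of 6PPD belong to fish that chose the genes, and the fish of the other doses overlap the controls.

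The course over dose was not gradual for most members. With 6PPD-Q, the median member differed from controls by 0.04, -0.01, 0.14, 0.31, 0.11, -0.07 and 0.09 over the 7 doses up to 2.77 mg/L, before 0.55 at 8.78 mg/L. The highest of these 7 was at 0.0878 mg/L, where 66 of the 77 members were above the control mean and 24 members (31.2%) were at least 0.4 above it, against 2.99% of measured genes. At that dose 3 members (3.90%) were at least 0.4 below it, against 3.88% of measured genes. At 0.878 mg/L, by contrast, 24 members were above the control mean and 53 below. The median measured gene differed from controls by 0.012 at 0.0878 mg/L and by -0.010 at 0.878 mg/L. The share of measured genes above the control mean was not counted, so the counts 66, 24 and 53 have no background. At 0.878 mg/L, 4 members (5.19%) were at least 0.4 above controls, against 0.871% of measured genes. At least 0.4 below them were 11 members (14.3%), against 1.88%. At 2.77 mg/L, 11 members (14.3%) were at least 0.4 above controls, against 2.19% of measured genes, and 6 members (7.79%) at least 0.4 below them, against 2.65%. At both of these doses the members exceeded the share of measured genes in both directions. With 6PPD, the median member differed from controls by 0.10, -0.01, -0.05, 0.04 and -0.04 up to 0.848 mg/L, before -0.71 at 2.68 mg/L. At 0.848 mg/L, 9 members (11.7%) were at least 0.4 below controls, against 2.71% of measured genes, and 8 members (10.4%) at least 0.4 above them, against 2.93%. No member passed both thresholds at the next doses down, 2.77 mg/L of 6PPD-Q and 0.848 mg/L of 6PPD. The measured genes that passed both were not counted, so nothing is read from this. These differences use the same controls as the rule and are descriptions. They were not adjusted for the share of reads outside genes, described below. That share was 9.66% to 13.5% at 0.0878 mg/L of 6PPD-Q, 8.55% to 12.5% at 0.878 mg/L and 9.25% to 11.7% in controls. What part it has in the values at 0.0878 mg/L was not tested.

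**Figure D2:**
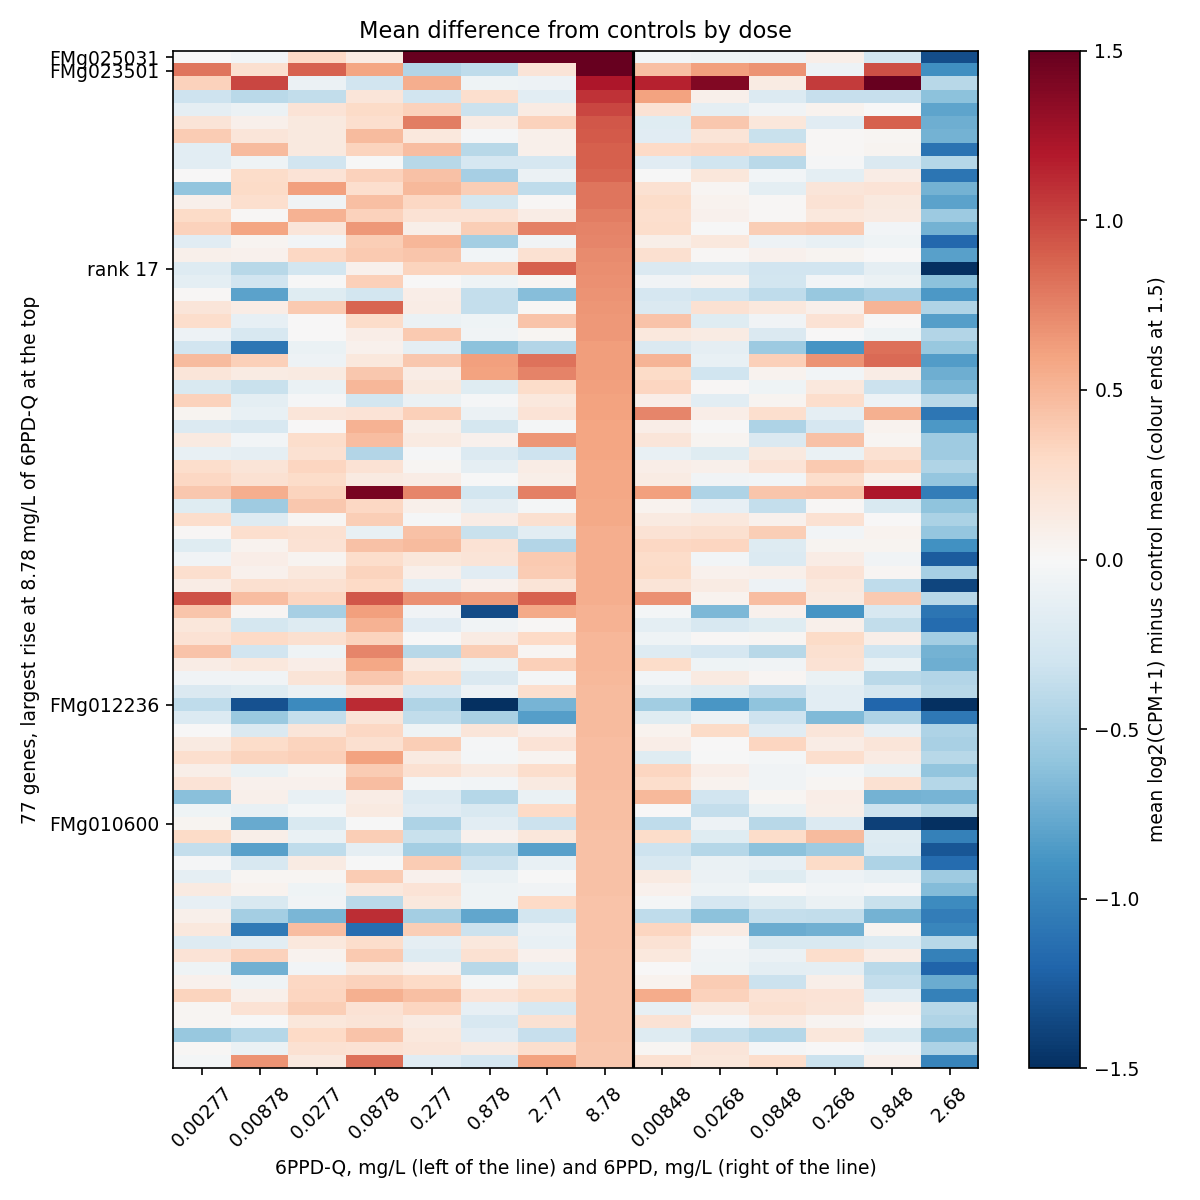
Mean log2(CPM + 1) minus the control mean for the 77 genes (rows, ordered by the rise at 8.78 mg/L of 6PPD-Q) at each dose in mg/L, for 6PPD-Q left of the line and 6PPD right of it. The column of the highest dose, farthest right for each chemical, chose the genes and is uniformly red (6PPD-Q) or blue (6PPD). The others are mixed, apart from FMg025031 from 0.277 mg/L of 6PPD-Q up and a largely red column at 0.0878 mg/L. In that column 66 of 77 genes were above controls, and the share of measured genes above controls was not counted.

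Tests were kept to the 60 fish that did not choose the members, those at the 7 lower doses of 6PPD-Q and the 5 lower doses of 6PPD, in 1 edgeR fit with adjustment over 21479 genes. All 77 members passed the filter on low counts. A gene with an adjusted p under 0.05 is called. In these fish 2 of the 77 members were called in any of 7 contrasts, both for 6PPD-Q, and no member was called for 6PPD alone. The counts of members at an unadjusted p under 0.05, given below, take both directions together. In each of the 7 contrasts they held members of both directions.

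Between the chemicals at matched doses, 1 member was called. At 0.878 mg/L of 6PPD-Q over 0.848 mg/L of 6PPD, 1 member was called higher and 0 lower, with a background of 0.0698% of genes higher and 0.386% lower. There 42 of 77 members were in the higher direction, against 51.4% of all genes. The median log2 difference was 0.03 in members and 0.01 over all genes. In either direction, 9 members were at an unadjusted p under 0.05, where 6.44% of all genes were. At 0.277 mg/L of 6PPD-Q over 0.268 mg/L of 6PPD, 1 member was called higher, the single gene called of all (background 0.00466% higher and 0% lower), and 48 members were in that direction, against 50.2% of all genes, with a median of 0.08. In that pair 4 members were at an unadjusted p under 0.05, where 2.30% of all genes were. For the 15 fish at 0.00878, 0.0277 and 0.0878 mg/L of 6PPD-Q over the 15 fish at 0.00848, 0.0268 and 0.0848 mg/L of 6PPD, edgeR called 0 members and 0 genes in either direction (background 0%), and DESeq2 called 0 as well. In that contrast 57 members were in the higher direction, against 51.3% of all genes, the median was 0.16 in members and 0.0043 over all genes, and 9 members were at an unadjusted p under 0.05, against 5.11% of all genes.

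Over the dose series of 6PPD-Q, 2 members were called. A linear slope over the 7 lower doses called 2 members rising and 0 falling, with a background of 0.014% rising (3 genes) and 0% falling, so that 2 of the 3 genes with a called slope are members. Over all 77 members the slope was above 0 in 35 and below 0 in 42, against 49.2% of all genes above 0, with a median of -0.002 per dose level. At 2.77 mg/L over the 4 lowest doses the same 2 members were called higher and 0 lower, with a background of 0.0466% higher (10 genes) and 0% lower, and 32 members were in the higher direction, against 48.2% of all genes. In each of these contrasts 5 members were at an unadjusted p under 0.05, where 4.58% of all genes were for the slope and 4.64% for the 2.77 mg/L dose.

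Over the dose series of 6PPD, edgeR called no member. For the slope over the 5 lower doses it called 0 members falling and 0 rising, where the background was 0.0279% falling and 0.396% rising, 4 members had an unadjusted p under 0.05, where 5.49% of all genes did, and 0 fell by the test of DESeq2. In that series 52 of 77 members were in the falling direction, against 50.9% of all genes. At 0.848 mg/L over the 4 lower doses edgeR called 0 members lower and 0 higher (background 0.154% lower and 1.09% higher), 7 had an unadjusted p under 0.05, where 7.72% of all genes did, and 47 were in the lower direction, against 50.4% of all genes. DESeq2 called 1 member lower there, FMg010600. Of the 206 genes that were at least 0.4 above controls at the top dose of both chemicals, 42 (20.4%) were called higher in this contrast. Of the 196 genes up with 6PPD-Q and within 0.2 of controls with 6PPD, 2 were. The 206 were chosen as higher with 6PPD and the members as lower, so these counts are not a like comparison. The difference of these shares from that of the members was not tested.

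**Figure D3:**
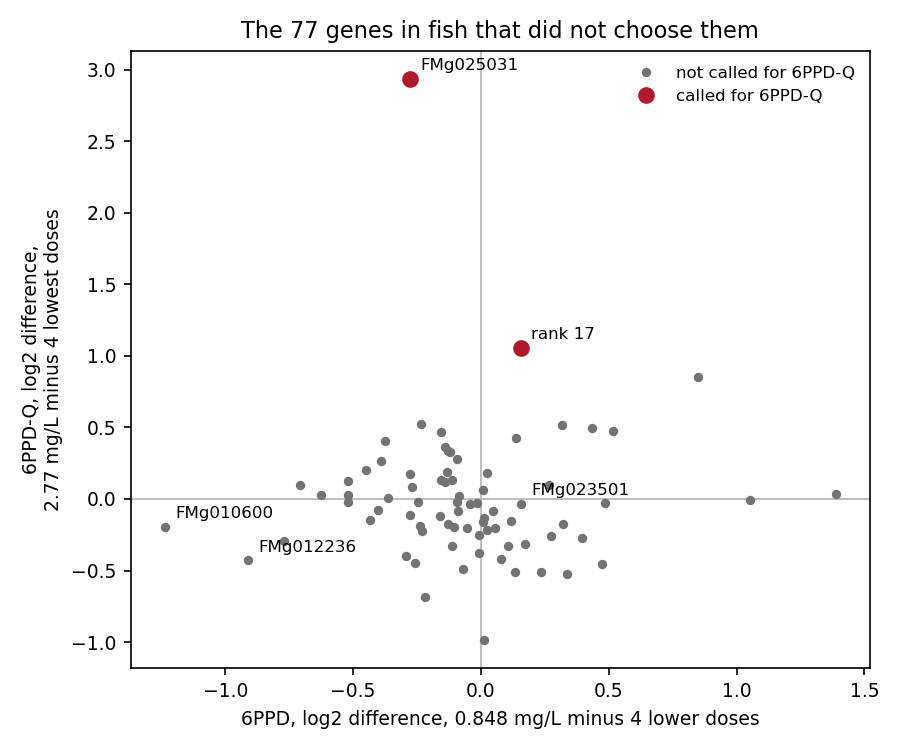
Log2 difference of the 77 genes in fish that did not choose them, at 2.77 mg/L of 6PPD-Q minus its 4 lowest doses (vertical axis) against 0.848 mg/L of 6PPD minus its 4 lower doses (horizontal axis), from edgeR. The 2 genes called for 6PPD-Q, in red, are FMg025031 at 2.94 and the gene ranked 17 at 1.06, and the other genes scatter around 0 on both axes.

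FMg025031, first of the members by its rise, rose with 6PPD-Q at a dose well below the highest and was low at the highest dose of 6PPD. At 8.78 mg/L of 6PPD-Q its 5 fish had 1367, 852, 1331, 793 and 995 CPM. At 2.68 mg/L of 6PPD the 5 fish had 25.0, 24.5, 14.9, 44.6 and 12.3 CPM. The 10 controls ranged from 42.2 to 73.9 CPM with a median of 58.2. All 5 fish with 6PPD-Q were far above every control, and 4 of the 5 with 6PPD were below every control, the fifth lying inside their range. The fish at these top doses and the controls chose the members. Nothing is therefore read from their separation, here or for the genes described below.

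The rise of FMg025031 was present in fish the rule did not use. At 0.277 mg/L of 6PPD-Q its 5 fish had 352, 475, 271, 562 and 401 CPM, against 41.9, 58.9, 58.7, 71.5 and 78.2 CPM at 0.268 mg/L of 6PPD. At 0.878 mg/L of 6PPD-Q they had 456, 651, 577, 862 and 83.2 CPM, against 48.5, 36.6, 45.5, 49.2 and 56.1 CPM at 0.848 mg/L of 6PPD. In both pairs the groups did not overlap, although replicate 5 at 0.878 mg/L of 6PPD-Q lay close to the unexposed range. That fish also had the lowest median over the 77 members of the 60 fish, -0.476.

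In edgeR's test FMg025031 was 2.76 ± 0.30 higher on the log2 scale with 6PPD-Q at the lower of these pairs (SE, adjusted p = 2.43e-08) and 3.48 ± 0.31 higher at the upper (adjusted p = 7.29e-12). In the 5 fish at 2.77 mg/L of 6PPD-Q there were 601, 419, 504, 565 and 376 CPM, 2.94 ± 0.19 above the 4 lowest doses on the log2 scale (SE, edgeR adjusted p = 9.91e-17). Below 0.277 mg/L of 6PPD-Q it averaged 58.6 ± 14.5, 56.1 ± 10.7, 71.7 ± 17.4 and 66.5 ± 26.6 CPM (SD, n = 5 each), so that the step lay between 0.0878 and 0.277 mg/L. The pooled contrast of 15 with 15 fish at the low doses gave 0.23 ± 0.16 (SE, edgeR adjusted p = 0.929). With 6PPD it averaged 47.2 ± 7.08 CPM at 0.848 mg/L (SD, n = 5), a log2 difference of -0.28 ± 0.23 from the 4 lower doses (SE, edgeR adjusted p = 0.934).

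The member ranked 17 by its rise and 3 by its fall was the second called. At 8.78 mg/L of 6PPD-Q its 5 fish had 102, 101, 49.3, 82.5 and 118 CPM. At 2.68 mg/L of 6PPD they had 4.35, 17.3, 29.9, 25.0 and 18.5 CPM. The controls ranged from 38.3 to 68.5 CPM with a median of 54.2. All 5 fish with 6PPD were below the lowest control, and 4 of the 5 with 6PPD-Q were above the highest. These fish, too, chose the members, so nothing is read from this.

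It also rose over the lower doses of 6PPD-Q. Over the doses up to 0.878 mg/L it averaged 47.6 ± 10.3, 40.8 ± 11.2, 46.7 ± 18.6, 57.2 ± 15.01, 68.8 ± 15.3 and 70.5 ± 22.8 CPM (SD, n = 5 each). At 2.77 mg/L the 5 fish had 125, 81.8, 122, 83.3 and 96.5 CPM, all above the highest control. The slope was 0.19 ± 0.03 per dose level as log2 (SE, edgeR adjusted p = 0.00144), against 0.64 ± 0.04 for FMg025031 (adjusted p = 4.23e-17). The level at 2.77 mg/L was 1.06 ± 0.17 above the 4 lowest doses (SE, edgeR adjusted p = 0.00126). Between the chemicals it did not pass the test at 0.878 over 0.848 mg/L, with 0.49 ± 0.23 (SE, edgeR adjusted p = 0.738). With 6PPD it averaged between 44.0 and 50.9 CPM at the 5 lower doses and 19.0 ± 9.63 CPM at 2.68 mg/L (SD, n = 5).

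**Figure D4:**
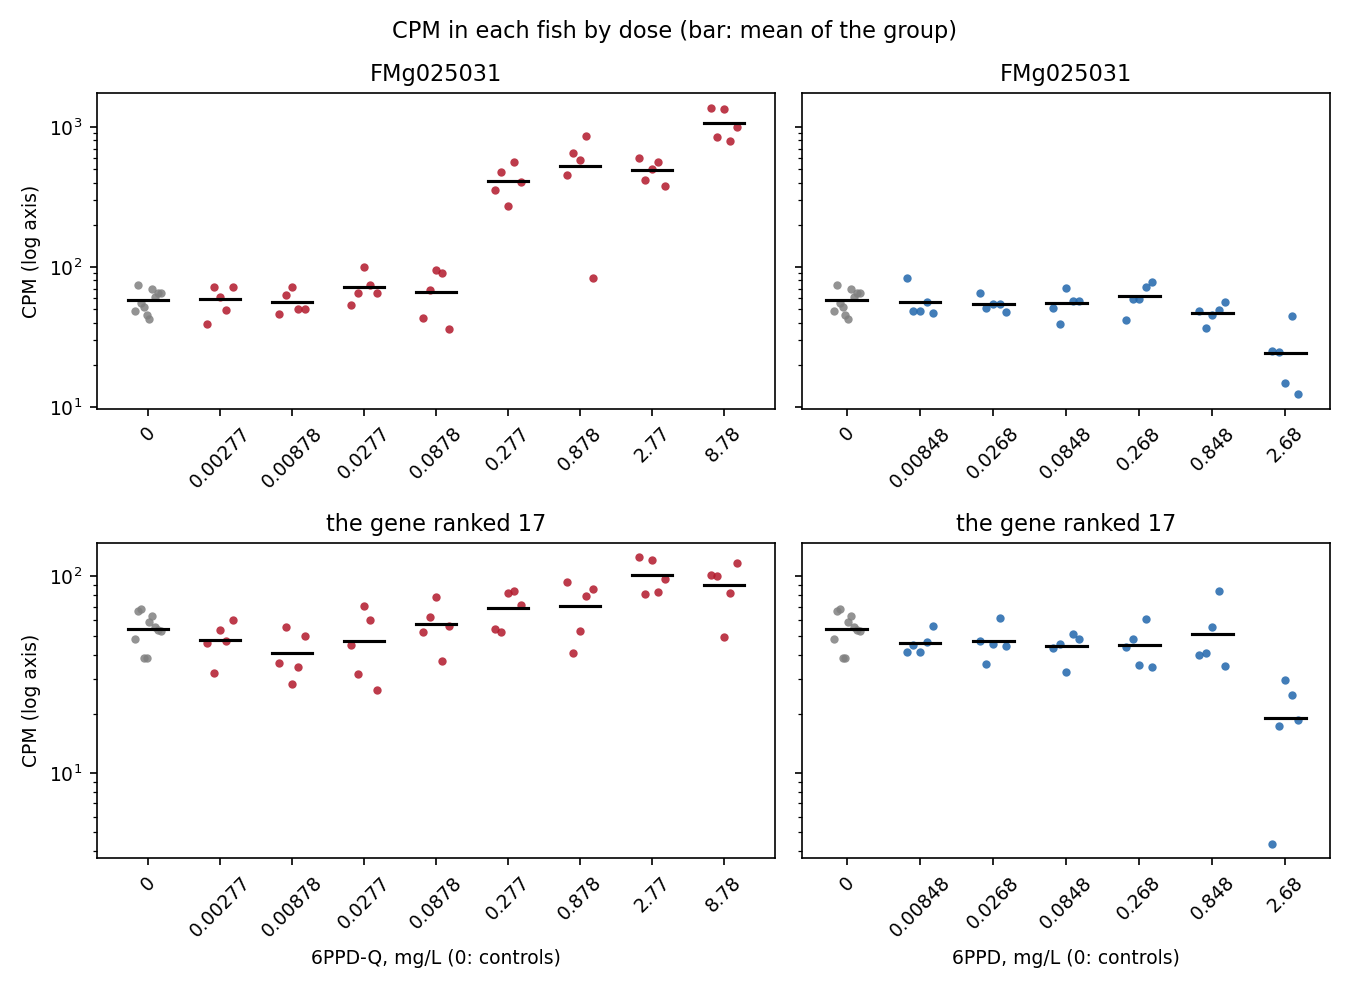
CPM on a log axis in each fish, by nominal dose in mg/L, for FMg025031 (upper panels) and the gene ranked 17 (lower panels), with 6PPD-Q on the left in red, 6PPD on the right in blue, the 10 controls in grey at 0, and bars at group means. FMg025031 steps up to a mean of 412 CPM at 0.277 mg/L of 6PPD-Q and the gene ranked 17 reaches 102 CPM at 2.77 mg/L. Both are lowest at 2.68 mg/L of 6PPD, in fish that chose the genes, with means of 24.2 and 19.0 CPM.

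FMg010600, second by its fall, was low at the 2 highest doses of 6PPD. At 2.68 mg/L of 6PPD its 5 fish had 3.17, 14.9, 11.8, 15.9 and 4.25 CPM. At 0.848 mg/L they had 14.9, 6.75, 13.4, 24.7 and 17.9 CPM. The controls ranged from 17.9 to 62.3 CPM with a median of 44.8, so all 5 fish at 2.68 mg/L and 3 of 5 at 0.848 mg/L were below every control.

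In the fish the rule did not use, FMg010600 at 0.848 mg/L was -1.24 ± 0.37 on the log2 scale against the 4 lower doses (SE, edgeR adjusted p = 0.0976). Over the alternatives its adjusted p ran from 0.0253 with DESeq2 to 0.355 without replicate 2 at 0.848 mg/L, and it was 0.0487 with the share of reads outside genes, described below, as a covariate. With 6PPD-Q it was scattered across the control range, at 86.1, 50.5, 91.6, 42.2 and 28.8 CPM at 8.78 mg/L, where 2 of 5 fish were above the highest control. The difference between 0.878 mg/L of 6PPD-Q and 0.848 mg/L of 6PPD was 1.45 ± 0.44 (SE, edgeR adjusted p = 0.167). Leaving out 1 fish at 8.78 mg/L of 6PPD-Q could take FMg010600 out of the set.

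Both remaining members given by identifier varied widely from fish to fish. FMg012236, with the lowest level relative to controls at 2.68 mg/L of 6PPD, had 2.10, 10.6, 8.07, 7.83 and 4.05 CPM there. Its 5 fish at 8.78 mg/L of 6PPD-Q had 662, 23.9, 163, 19.0 and 76.0 CPM, and its controls ranged from 9.25 to 161 CPM with a median of 72.5. Of the 5 fish with 6PPD-Q, 2 lay above the control range and the others inside it, while 4 of the 5 with 6PPD were below it. Single fish at other doses reached 849 CPM (0.0878 mg/L of 6PPD-Q) and 663 CPM (0.268 mg/L of 6PPD). At 0.848 mg/L of 6PPD it differed from the 4 lower doses by -0.91 ± 0.94 (SE, edgeR adjusted p = 0.957).

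FMg023501, second by its rise, had 56.2, 33.0, 49.2, 15.5 and 24.7 CPM at 8.78 mg/L of 6PPD-Q. It had 5.37, 4.58, 7.38, 6.55 and 2.60 CPM at 2.68 mg/L of 6PPD. Its controls ranged from 4.38 to 38.2 CPM with a median of 7.62, so both exposed groups overlapped them. At 0.878 mg/L of 6PPD-Q its 5 fish had 30.6, 2.28, 2.25, 48.5 and 2.23 CPM, against 42.9, 4.93, 37.9, 20.3 and 25.3 CPM at 0.848 mg/L of 6PPD, a log2 difference of -0.63 ± 0.94 (SE, edgeR adjusted p = 0.983).

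The members' levels moved with a property of the libraries, the share of reads that fell outside any gene. Over the 60 fish that did not choose the members, the median level over the 77 genes correlated with that share at r = 0.764 (Spearman's rho 0.765) within dose groups and at r = 0.766 (rho 0.779) over all of them, and at r = 0.783 without the 2 fish farthest from the median share. All 60 are of plate C, and the points share the library, since both measures come from the same counts. With the number of counts in genes r was 0.03. The correlation with the share was not computed for the median over all measured genes. The r of 0.764 therefore has no background, and nothing particular to the members is read from it. Taken gene by gene, the within-group r with the share had a median of 0.353 in members and was above 0 in 66 of the 77 (85.7%), against a median of 0.143 and 60.5% in measured genes. Pairs of members also varied together within dose groups more than pairs of measured genes did, with a median r of 0.19 over 2926 pairs, against 0.0255.

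The share of reads outside genes was 10.1% to 12.5% (mean 11.4%) in the 5 fish at 8.78 mg/L of 6PPD-Q, 9.74% to 11.9% (mean 10.4%) at 2.68 mg/L of 6PPD and 9.25% to 11.7% (mean 10.4%) in controls. The 3 fish with 6PPD-Q whose members were highest had the shares 12.5%, 11.9% and 11.9%, and the other fish had 10.5% and 10.1%. One of the 3, replicate 5, also had the lowest share of reads in genes of all 80 libraries (74.3%) and the fewest genes detected (22110). Adjusted for the share with each gene's slope in the 60 fish, the members' median difference was 0.44 at 8.78 mg/L of 6PPD-Q and -0.70 at 2.68 mg/L of 6PPD, and 42 of the 77 still met the rule. For comparison, leaving out 1 fish at 8.78 mg/L of 6PPD-Q kept between 51 and 73 of the 77. This adjustment for the share was chosen after seeing the data. What part the share has in the values that chose the members was not tested. With the share as a covariate in the tests, FMg025031 and the member ranked 17 stayed called in each contrast where they had been.

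**Figure D5:**
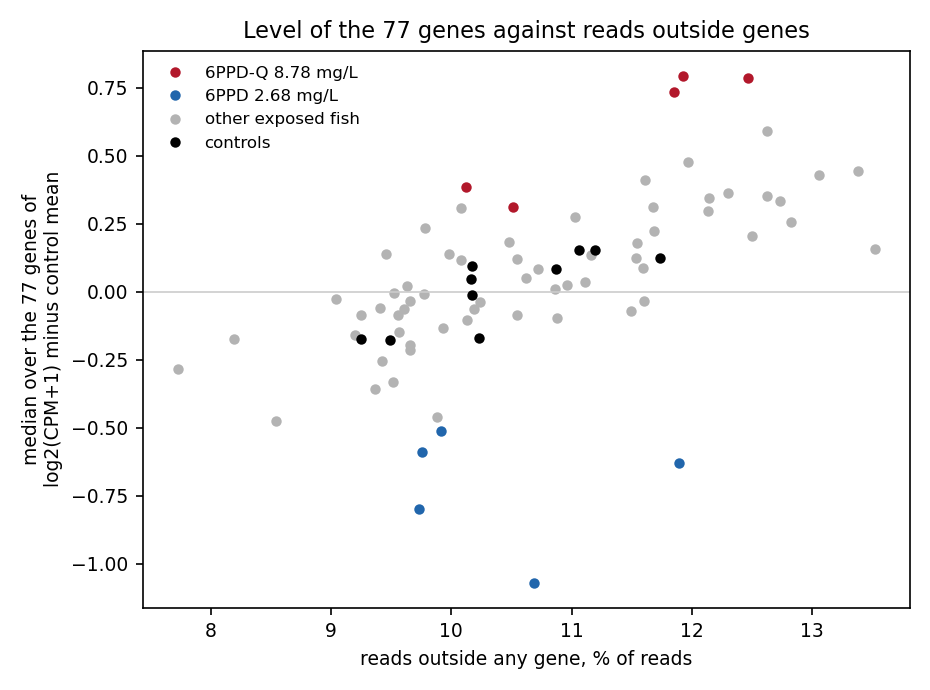
Median over the 77 genes of log2(CPM + 1) minus the control mean (vertical axis) against the share of reads outside any gene in % (horizontal axis), 1 point a fish, for 8.78 mg/L of 6PPD-Q (red), 2.68 mg/L of 6PPD (blue), the 60 other exposed fish (grey) and the 10 controls (black). The grey points climb from left to right (r = 0.766). The blue points lie below all others and the red points are high, but these fish chose the genes, so nothing is read from their height. The shares of the blue points span much of the control range. What part the share has in the levels at these doses was not tested.

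Membership of the set depended on single fish and on settings. Of the 77 genes, 27 met the rule whichever single fish was left out, 37 whichever fish at 8.78 mg/L of 6PPD-Q, and 56 whichever fish at 2.68 mg/L of 6PPD. Without the plate A libraries the rule gave 77 genes, 58 of them members, and with replicate 5 at 8.78 mg/L of 6PPD-Q left out it gave 96, 62 of them members. FMg025031, FMg023501 and the member ranked 17 were among the 27, and FMg010600 and FMg012236 were not.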

How the data were processed

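Whole-body RNA of 80 single larvae was sequenced from Lexogen SENSE libraries, per the labels' protocols. The values the authors deposited are whole-number counts of 26150 genes and 5 lines without a gene, left out of library sizes and of all tests. Of these, the line for reads outside any gene held between 7.73% and 13.5% of the reads. The submitters' processing notes list HTSeq 0.13.5, STAR 2.7.10a and Trim Galore 0.6.6 among other tools. Genome build, annotation and strand setting remain not given in the sources used here, so overlapping and antisense genes, and near-identical copies, are uncertain. The deposited tables of log2 values were not used.

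CPM are counts over the sum of a library's counts in genes. The members and lists were chosen with earlier results of these data known. Tests used R 4.3.3 with edgeR 4.0.16 (TMM factors, the quasi-likelihood F test, filterByExpr by group, Benjamini-Hochberg adjustment over all 21479 genes tested, threshold 0.05) on the 60 fish the rule did not use, with 1 mean for each of 12 groups and 7 contrasts. The slope is linear in dose level, 1 step a level. The adjusted p-values given for single genes come from this fit unless DESeq2 1.42.0 is named. Standard errors are derived from the F statistic. The fit was first run on simulated counts, and the outcome of that run is not reported here. Each fish is a separate animal. Doses were matched by nominal mass per volume, and molar doses were not compared. Identifiers were printed for 4 members, by the rule: the largest 2 rises with 6PPD-Q and, of the rest, the largest 2 falls with 6PPD. Others are given by rank. Sequences and tissue markers could not be matched to these identifiers and are not used here. The alternatives were DESeq2's size factors, DESeq2, no filter on low counts, all 80 fish in the fit, the groups of a contrast alone, a replicate block, each fish left out in turn, and, chosen after seeing the data, the share of reads outside genes as a covariate.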

Additional observations from a re-analysis of the deposited data

Results flagged for a closer look

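FMg025031 differed between the chemicals in fish that did not choose it, by a test of the difference itself. The log2 difference was 3.48 at 0.878 mg/L of 6PPD-Q over 0.848 mg/L of 6PPD and 2.76 at 0.277 mg/L of 6PPD-Q over 0.268 mg/L of 6PPD (edgeR, adjusted p = 7.29e-12 and 2.43e-08).

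In 3 of the 90 groups of values looked at, a lone fish lay well apart from its group, and chance gives about 1 in 20. For FMg025031 it was replicate 5 at 0.878 mg/L of 6PPD-Q, with 83.2 CPM. For FMg012236 it was replicate 4 at 0.878 mg/L of 6PPD-Q, with 0.776 CPM, and replicate 1 at 0.0848 mg/L of 6PPD, with 3.82 CPM.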

How the results depend on the processing

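The counts of members called were the same as reported under each alternative for 6 of the 7 contrasts. For 0.848 mg/L of 6PPD under its 4 lower doses, 1 member was called lower with DESeq2 and 1 with the share of reads outside genes as a covariate, FMg010600 in both, against 0 as reported. The number of genes meeting the rule, 77, was 24 with log2(CPM + 5), 174 at a threshold of 0.3, 36 at 0.5 and 47 after adjustment for the share of reads outside genes, and it ranged from 61 to 112 with 1 fish left out. With group medians in place of means it was 93, of which 48 are members. FMg025031 and the member ranked 17 were called in every fit of the contrasts where they are reported as called. For FMg025031 the log2 difference at 0.878 over 0.848 mg/L was 3.24 to 3.75. For the member ranked 17 it was at least 0.970 at 2.77 mg/L over the 4 lowest doses of 6PPD-Q. Over the edgeR and DESeq2 fits, the highest adjusted p of the member ranked 17 was 0.0448 in that contrast and 0.018 for the slope. For FMg025031 these were 8.56e-12 and 1.86e-10. Counts over all genes moved more: 98 genes called at 0.878 over 0.848 mg/L became 163 with the covariate, 60 in a fit of those groups alone and 60 when replicate 5 at 0.848 mg/L of 6PPD was left out; 1 at 0.277 over 0.268 mg/L became 3 with DESeq2; 3 for the 6PPD-Q slope became 7 with DESeq2; 10 at 2.77 mg/L over the 4 lowest doses became 5 in a fit of those groups alone and 2, 5, 6 and 19 without replicate 1, 2, 4 and 5 at 2.77 mg/L; and 268 at 0.848 mg/L of 6PPD over the 4 lower doses became 169 without replicate 5 of that dose. With the replicate block the members called were 1 and 1 between the chemicals at the upper and middle doses, 2 for the 6PPD-Q slope, 2 at 2.77 mg/L and 0 elsewhere. No call of a member changed, while the 98 genes called at 0.878 over 0.848 mg/L became 115. The numbers do not pair the fish: same-numbered fish of different groups correlated at a median of 0.0093 and others at -0.0076, the lowest same-numbered correlation was -0.29, and 10 of 60 fish correlated best with their own number. Depth limits the 29 members under 5 CPM most, and with 5 fish a dose moderate changes may have been missed.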
